A study of Caenorhabditis elegans with 2 samples.

Results

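The regions described here are weak SUP-37 ChIP-seq signals in starved Caenorhabditis elegans larvae that recurred in both replicates but ranked below the peaks the authors kept. They were chosen by rank and by replicate summits: a region of the pooled list had to rank behind the 1500 strongest and among the 5000 strongest by the authors' signal, and each replicate list had to hold, among its 5000 strongest regions, a summit no more than 200 bp from that of the pooled region. Of the 3500 regions of these ranks, 339 (9.69%) met the rule, out of 30000 regions in the pooled list. The other 3161 are called unreplicated below, which covers 1494 regions matched in replicate 1 only, 1015 matched in replicate 2 only and 652 matched in neither.

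The series is a chromatin immunoprecipitation and sequencing (ChIP-seq) experiment on whole larvae, with 1 group of 2 biological replicates. The worms of both replicates were strain OP611, with the allele unc-119(tm4063) and the transgene wgIs611, which holds unc-119(+) and the fusion sup-37::TY1::EGFP::3xFLAG. They were L1 larvae of mixed sex, 6 hours old, starved after bleaching, and their chromatin was sonicated to 200 to 800 bp. The precipitating antibody was against GFP according to the samples' description but is given as sup-37 in the antibody field. Both replicates came from 1 transgenic strain and from all tissues together, and no untagged strain or input library was analysed here. Sequencing depth is unknown, as read counts are not part of the lists, and p-values below describe regions of these 2 libraries, since regions are not replicates. Positions are 1-based on build ce11 (WBcel235).

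Mutations in sup-37 suppress the lethality of pha-1 mutants, whose pharynx does not form properly. ChIP-seq lists usually run far below the binding sites a study reports, because callers keep weak regions so that the irreproducible discovery rate (IDR) procedure can compare how replicates rank them. The authors label the pooled list as peaks and background, as input for IDR. Weak regions can hold background, low-occupancy sites, sites used in few cells of a mixed tissue and the shoulders of strong peaks. They can also be places that are recovered in many precipitations, and a list alone does not tell these apart. Promoters of C. elegans are compact and often shared between neighbouring genes, and transfer RNA (tRNA) genes are transcribed by RNA polymerase III from promoter elements inside the gene.

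The sequences at the summits of the best-ranked members are shown so that the weak regions can be seen as DNA. They are 4 members at protein-coding promoters and the best-ranked member beside a gene of each of the ncRNA and tRNA classes. The 4 are the best-ranked promoter members except that at sre-23 (rank 1514), whose window is not shown. The windows were taken from the ce11 reference as the summit base with 50 bp on either side, on the plus strand. Capitals mark the 11 bases centred on the summit in the first 5 and the bases of the annotated tRNA gene in the last. The lin-40 window is chrV:3703969-3704069, M05D6.5 is chrII:8482843-8482943, nhr-117 is chrV:1621353-1621453, B0464.9 is chrIII:9464885-9464985, F13H6.12 is chrV:6358127-6358227 and WBGene00014538 is chrX:11095585-11095685.
lin-40: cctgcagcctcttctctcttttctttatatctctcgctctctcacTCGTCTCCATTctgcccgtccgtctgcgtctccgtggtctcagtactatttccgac
M05D6.5: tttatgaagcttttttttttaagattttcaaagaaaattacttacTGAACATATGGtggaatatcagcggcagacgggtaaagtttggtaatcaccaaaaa
nhr-117: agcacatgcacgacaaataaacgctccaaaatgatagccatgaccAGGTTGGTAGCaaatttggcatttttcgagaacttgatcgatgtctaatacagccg
B0464.9: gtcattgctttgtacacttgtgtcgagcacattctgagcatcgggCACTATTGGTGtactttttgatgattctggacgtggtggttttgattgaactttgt
F13H6.12: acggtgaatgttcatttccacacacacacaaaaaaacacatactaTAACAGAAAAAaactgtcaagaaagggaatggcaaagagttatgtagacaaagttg
WBGene00014538: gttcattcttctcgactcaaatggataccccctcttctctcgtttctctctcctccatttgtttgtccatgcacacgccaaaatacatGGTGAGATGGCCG

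The windows differed widely in base composition. The lin-40 window was 52.5% G+C, that of M05D6.5 was 30.7%, those of nhr-117 and B0464.9 were 42.6%, that of F13H6.12 was 34.7% and that of the tRNA gene was 47.5%. No 32-mer of these 6 windows had another copy in the reference.

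Replication fell steeply with pooled rank. The pooled list comes from the reads of both replicates, and IDR compares how they rank regions. The decline therefore describes the lists and is not a separate result. The match in both replicates that the rule asks for was present for 873 of the 924 IDR peaks (94.5%) and for 377 of the 576 regions that follow them down to rank 1500 (65.5%). Within the range described here, it was present for 159 of the 500 regions down to rank 2000, then for 96, 37, 18, 12, 10 and 7 of each further 500. The members' median pooled rank was therefore 2025, against 3387 for unreplicated regions. Tests below compare members and unreplicated regions within bins of 500 ranks, except the main test of words and where stated.

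**Figure D1:**
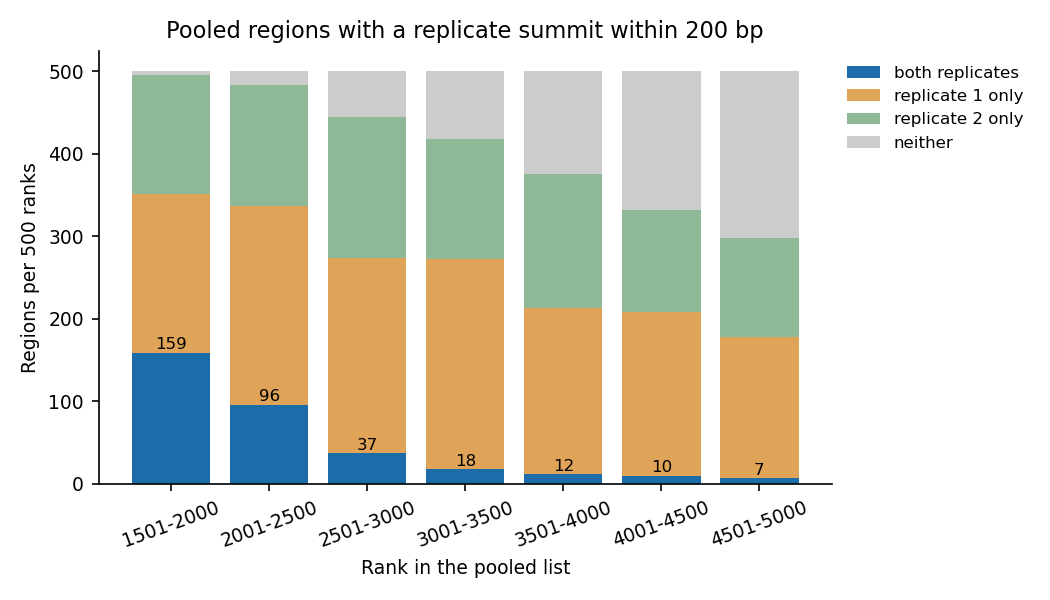
Regions of pooled rank above 1500 and up to 5000 in bins of 500 ranks (x axis), divided by whether they were matched in both replicates, in replicate 1 only, in replicate 2 only or in neither (y axis, number of regions). The number of members, printed on each bar, falls from 159 to 7.

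The members' values sit in a narrow band in the pooled list and spread widely in each replicate. The authors' pooled signal had a median of 86.7, from 70.5 to 95.2, and the authors' −log10 q ran from 0.339 to 0.766. No member therefore had a deposited q under 0.05. The rank in replicate 1 ran from 32 to 4978 with a median of 2824, and in replicate 2 from 46 to 4996 with a median of 2940. The signal, whose scale differs between lists, had a median of 53.5 in replicate 1 and of 36.5 in replicate 2. The farther of the replicate summits lay a median of 73 bp from the pooled summit. In both replicates 266 members ranked behind 1500, while 20 ranked at 1500 or better in both, 27 in replicate 1 only and 26 in replicate 2 only. These ranks and distances chose the members and support nothing further.

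**Figure D2:**
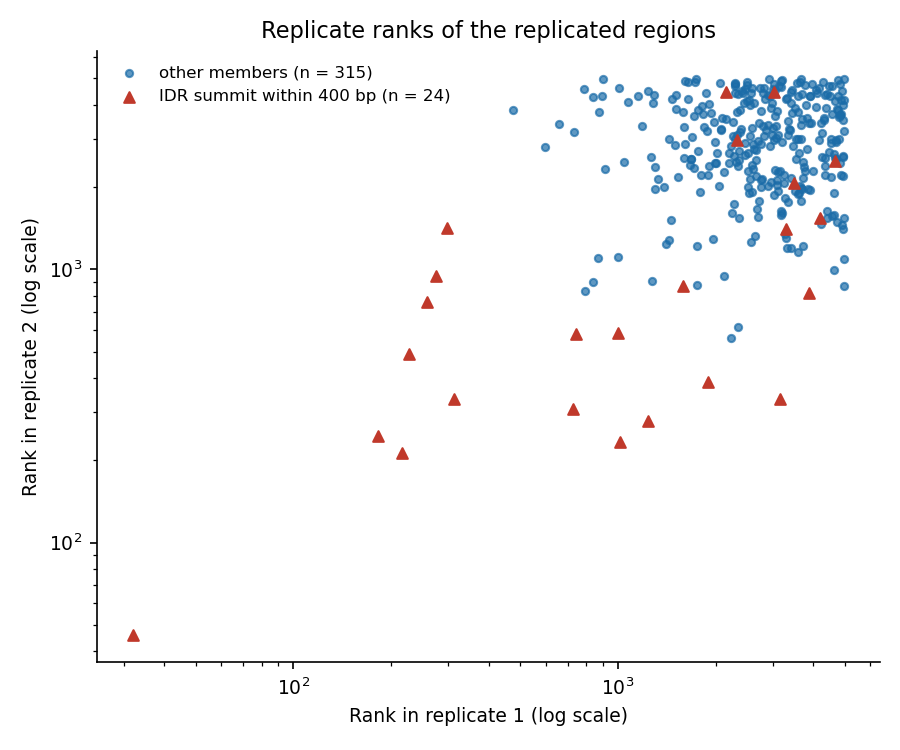
Rank of the strongest region within 200 bp of each of the 339 members in replicate 1 (x axis) and replicate 2 (y axis), both on log scales. Triangles are the 24 members with an IDR summit within 400 bp and include the members that rank best in both replicates, such as the one that ranks 32 and 46.

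Values changed little across the limits of the rule. Rank 1500, in a coding exon of usp-4, had a pooled signal of 95.19. The next rank, in a coding exon of ain-1, had 95.18 and was not a member, because its replicate 2 region ranked 6094. The member of best rank was 1502, upstream of lin-40, and the member of worst rank was 4762, in a coding exon of bcat-1, a branched-chain amino acid aminotransferase gene. Rank 5000, in a coding exon of men-1, had a signal of 69.69, and the next, nearest to cysl-2, had 69.68. A member near vhp-1, at rank 2027, had its replicate 2 summit exactly 200 bp away, whereas the region at zer-1, at rank 1936, lay 1 bp beyond that limit. The member in C15A11.7 qualified through rank 4996 in replicate 2, while a region near pnc-2 missed through rank 5020.

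The 25 best-ranked members, from rank 1502 to 1558, lay in 5 of the 6 location classes, with 0 in 5′ UTRs. Of these, 9 had their summit in a promoter, taken as the stretch from 1000 bp before to 200 bp after the 5′ end of a protein-coding gene, 6 in intergenic sequence, 5 in introns, 4 in coding exons and 1 in a 3′ UTR. The best-ranked lay 969 bp upstream of lin-40 (chromosome V, 3703827 to 3704210), which encodes an MTA-type subunit of chromatin remodelling complexes. Its authors' signal was 95.2 in the pool, 53.8 in replicate 1, where it ranked 2767, and 40.7 in replicate 2, where it ranked 2009. Its nearest IDR summit was 427615 bp away.

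Other promoter members of this set were upstream of sre-23, a chemoreceptor gene (rank 1514), of M05D6.5 (rank 1530), of B0464.9 (rank 1538), of Y75B12B.11 (rank 1543), of T19H5.4 (rank 1545), of F53G2.3 and F53G2.12 together (rank 1546) and of unc-14, which acts in axon guidance (rank 1558). The region of nhr-117, a nuclear hormone receptor gene (rank 1536), lay 117 bp downstream of its 5′ end. The summits at M05D6.5 and B0464.9 lay inside other genes, taap-1 and B0464.6. The member at unc-14 ranked 841 and 899 in the replicates, with signals of 73.1 in replicate 1 and 55.4 in replicate 2, and had the best ranks in both replicates among these 9. In the T19H5.4 region both replicate summits fell on the same base as the pooled summit, with ranks of 1988 and 2449.

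The other 16 of these members lay outside promoter windows, in gene bodies or intergenic sequence. A coding exon of fln-1, the filamin gene, held the member of rank 1506, 15125 bp from the 5′ end, with replicate ranks of 3029 and 1866. Introns held members in ZC328.3 (rank 1508), tex-2 (rank 1521), F11E6.8 (rank 1522, nearest to the 5′ end of F11E6.11), bcl-11 (rank 1528) and dhrr-1 (rank 1539). Coding exons of H41C03.3 (rank 1524), F01G4.6 (rank 1534) and asic-2, an ion channel gene of the DEG/ENaC family (rank 1537), held others. Intergenic members lay 1300 bp upstream of unc-64, the syntaxin gene (rank 1510), 2588 bp upstream of spsb-1 (rank 1517), 7288 bp upstream of sca-1, the muscle calcium pump gene (rank 1525), 1494 bp upstream of unc-116, a kinesin heavy chain gene (rank 1533), and 2022 bp upstream of acr-8, an acetylcholine receptor subunit gene (rank 1556). The remaining intergenic member lay beside the tRNA gene WBGene00014538, near W02H3.3 (rank 1529), and the 3′ UTR member lay in calu-2 with gpc-2 as the nearest 5′ end (rank 1531). Of these 16 members, the one in F01G4.6 ranked 597 in replicate 1 and 2803 in replicate 2, and that in tex-2 ranked 893 and 4312.

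No location class passed the test between members and unreplicated regions of the same ranks. At promoters lay 107 members (31.6%, 95% exact binomial interval 26.6 to 36.8) and 784 unreplicated regions (24.8%). Coding exons held 67 members (19.8%) and 848 unreplicated regions (26.8%), introns 96 (28.3%) and 796 (25.2%), intergenic sequence 61 (17.99%) and 638 (20.2%), and 3′ UTRs 8 (2.36%) and 68 (2.15%). No member and 27 unreplicated regions lay in 5′ UTRs. In an exact conditional test of a common odds ratio over the 7 rank bins, with Benjamini-Hochberg adjustment over the 6 classes, the odds ratio of members over unreplicated regions was 1.19 (95% interval 0.910 to 1.56, adjusted p = 0.234) for promoters. In the same exact test it was 0.746 (0.546 to 1.01, adjusted p = 0.158) for coding exons and 1.32 (0.995 to 1.74, adjusted p = 0.158) for introns. The intervals allow up to 1.56 times the odds for promoters, so a p that misses the threshold does not show that the groups were alike. Without the rank bins the promoter ratio was 1.40 and the coding exon ratio 0.672, both with an adjusted p of 0.0257 by Fisher's exact test.

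**Figure D3:**
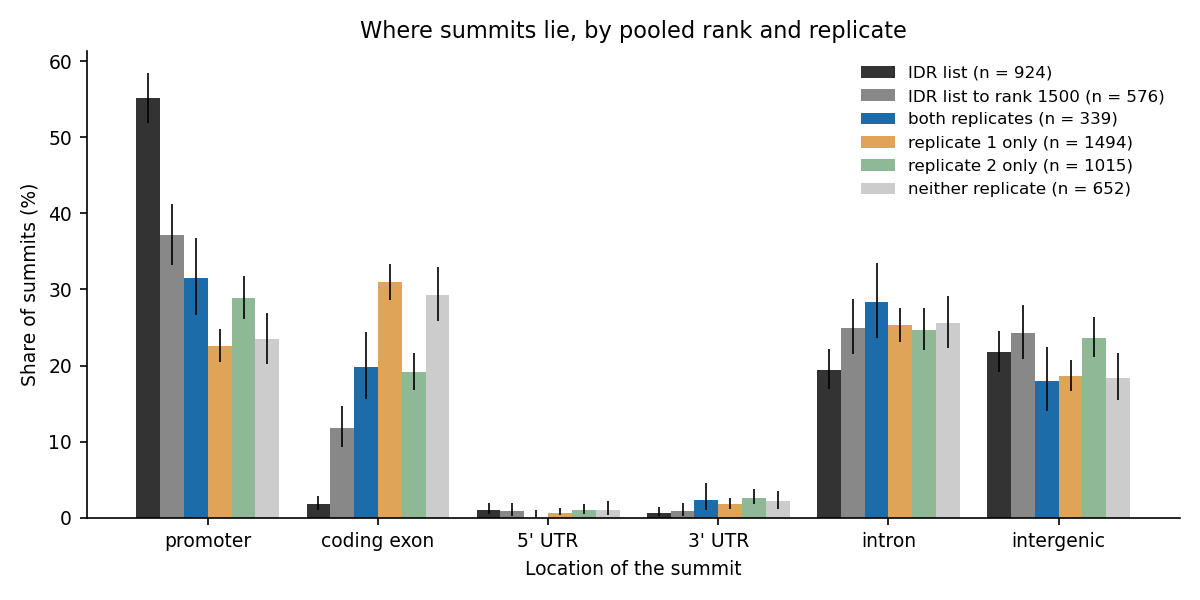
Share of summits in each location class (y axis, percent, with 95% exact binomial intervals) for the IDR peaks, the regions that follow them down to rank 1500 and the 4 replication groups of the next 3500 ranks. Promoter shares fall from 55.2% in the IDR list to 31.6% in regions of both replicates, and coding exon shares rise from 1.84% to 19.8%.

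Over all their ranks together, the members stood between the IDR peaks and the unreplicated regions as a whole for promoters and coding exons. Among the unreplicated, regions matched in replicate 2 only had 19.1% in coding exons, below the 19.8% of members. For promoters the order did not hold in every rank bin. Down to rank 2000, with 159 of the members, promoters held 28.9% of members and 32.3% of unreplicated regions. In the next bin, down to rank 2500, they held 37.5% and 26.5%. Promoters held 55.2% of IDR summits, 37.2% of those from there to rank 1500 and 31.6% of members. Coding exons held 1.84%, 11.8% and 19.8%. Of the promoter members, 71.0% lay upstream of the nearest 5′ end, against 91.2% of promoter IDR peaks and 71.3% of unreplicated promoter regions, and the median distance to that 5′ end was 240 bp, 197 bp and 242 bp. These rank ranges were not tested against each other.

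Regions matched in 1 replicate differed in location between the replicates, and the comparison above turned with the replicate used. Regions matched in replicate 2 only lay at promoters in 28.9% of cases, against 22.6% of those matched in replicate 1 only (odds ratio 1.38, 1.15 to 1.67, exact test over rank bins, adjusted p = 0.0015). Coding exons held 19.1% and 31.0% (odds ratio 0.526, 0.431 to 0.639, exact test, adjusted p = 1.24e-10). Intergenic sequence held 23.6% and 18.6% (odds ratio 1.35, exact test, adjusted p = 0.0059), and 46.3% against 55.4% of the windows were at or above the median G+C of 42.6% (odds ratio 0.695, adjusted p = 3.99e-05). This comparison was added after the values were seen. Where a match in replicate 2 alone was enough, the promoter ratio of matched over other regions was 1.34 (exact test, adjusted p = 0.0011) and the coding exon ratio 0.564 (adjusted p = 6.18e-11). Where a match in replicate 1 alone was enough, both turned, to 0.808 (exact test, adjusted p = 0.0224) and 1.49 (adjusted p = 4.89e-06).

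**Figure D4:**
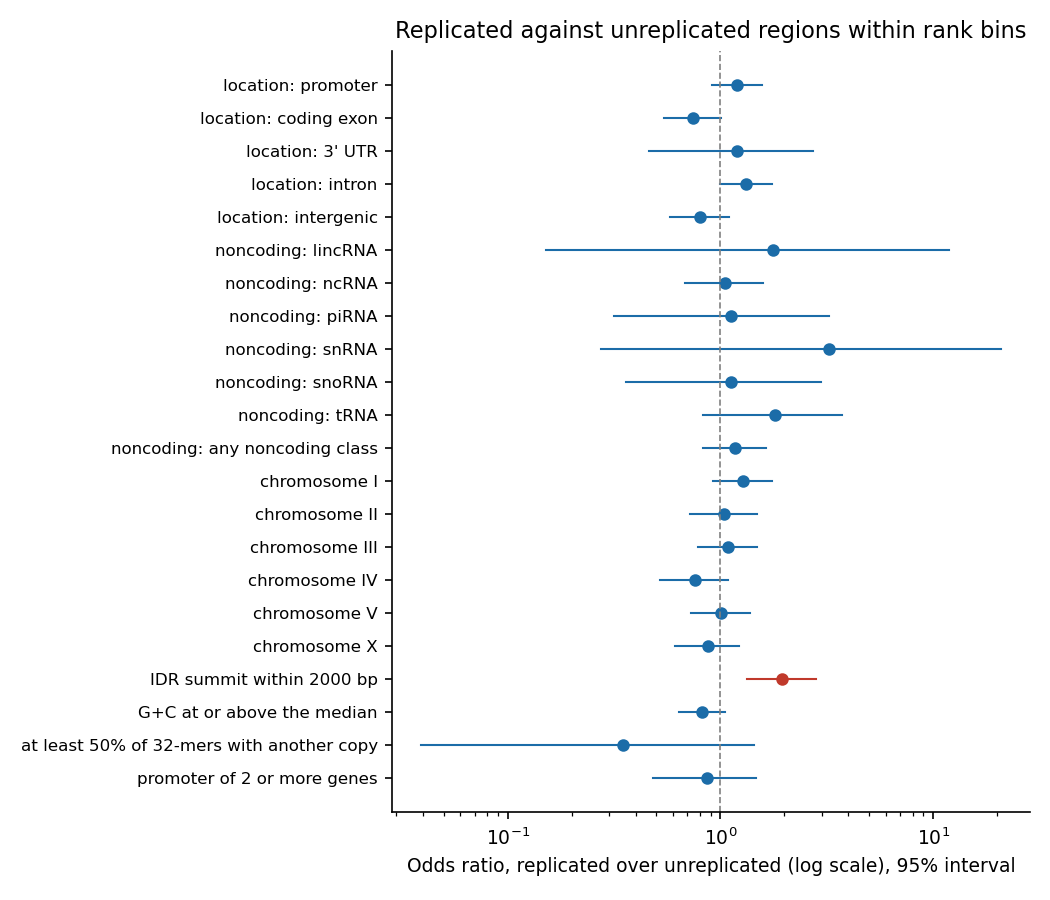
Odds ratios of members over unreplicated regions within bins of 500 pooled ranks (x axis, log scale), as points with 95% intervals as lines, for location, noncoding class, chromosome and other features. Features with no member (5′ UTR and pseudogene) are not drawn, and only the presence of an IDR summit within 2000 bp, in red, had an adjusted p under 0.05. That feature is not independent of the rule. Its ratio was 1.16 and did not pass when each replicate summit counted for its nearest pooled region only.

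Few genes had a member at their promoter. There were 125 of 19973 protein-coding genes (0.626%), against 929 (4.65%) with an unreplicated region, and 105 of the 125 had no region of rank 1500 or better there. An IDR peak at the same promoter was present for 16 of the 125 (12.8%) and for 41 of the 929 genes (4.41%), beside 687 of all 19973 genes (3.44%). All 16 of those genes were among the 17 whose member lay within 400 bp of an IDR summit, and of the other 108 genes with a member 0 had an IDR peak at the promoter. Of the 901 genes whose unreplicated regions all lay farther than 400 bp from an IDR summit, 14 (1.55%) had one. Only ncs-2 had more than 1 member at its promoter. Of 33 gene lists, 13 had a gene with a member and 20 had none, and with so few genes each list count stands beside the share of 0.626% without a test. List counts for unreplicated regions likewise stand beside their share of 4.65%.

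The list with the largest number of genes with a member was that of cytosolic ribosomal proteins, where rpl-24.1 and rps-10 count through the same member. It had 5 of 82 genes with a member at the promoter (6.10%), beside 14 (17.1%) with an unreplicated region and 26 (31.7%) with an IDR peak. The divergent promoter of rpl-24.1 and rps-10 held the member of rank 1611, with ranks of 4968 in replicate 1 and 866 in replicate 2, and neither gene had an IDR peak there. The member at rpl-16, rank 2429, lay 576 bp upstream, inside lias-1, and ranked 3442 and 4534. Those at rps-0, rank 1709, and rpl-38, rank 2481, lay 215 bp and 205 bp from an IDR summit. The rps-0 member lay inside rbg-3, 170 bp from the 5′ end of rbg-3 and 543 bp from that of rps-0. The gene rpl-38 is named outside the naming rule, after its values were seen. Mitochondrial ribosomal protein genes had 3 of 70 (4.29%), namely mrpl-15 (rank 1713), mrps-31 (rank 1906) and mrpl-40 (rank 2350), and none of these had an IDR peak. The mrpl-40 summit lay inside F54C4.4. Translation factor genes (44), aminoacyl-tRNA synthetase genes (32), splicing factor genes (58) and proteasome genes (33) had no member. Unreplicated regions lay at the promoters of 8 of the translation factor genes (18.2%) and 12 of the splicing factor genes (20.7%). They also lay at 2 aminoacyl-tRNA synthetase genes (6.25%), 3 proteasome genes (9.09%) and 4 mitochondrial ribosomal protein genes (5.71%).

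A regulator of the pharynx and 3 cell cycle genes had a member. The member of rank 1641 lay 235 bp upstream of pha-4, the FoxA factor that specifies the pharynx (chromosome V, 20752625 to 20753008). Its signal was 92.6 in the pool, 55.9 in replicate 1 at rank 2334 and 34.3 in replicate 2 at rank 3761, and its nearest IDR summit was 25580 bp away. It was the 1 member among 15 pharynx transcription factor genes and the 1 among 23 insulin signalling and starvation genes, a list that also holds pha-4. Unreplicated regions lay at the promoters of 0 and 5 genes of these lists. The cell cycle list had 3 of 50 (6%), beside 8 (16%) with an unreplicated region and 7 (14%) with an IDR peak. The members at efl-1, an E2F gene (rank 2187), and lin-35, the Rb gene (rank 4082), lay 199 bp and 210 bp from an IDR summit, and that at cdk-7 (rank 2881) did not have one within 2000 bp. In the list of pha-1 and its SUP pathway, lin-35 was the only one of 7 genes with a member. For pha-1, sup-35, sup-36, sup-37, ubc-18 and ari-1.1 the nearest member lay at least 45079 bp away.

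Other lists had 1 or 2 genes with a member. Autophagy genes had 2 of 29, epg-8, an Atg14-type gene (rank 1726, inside dsbn-1 and 225 bp from an IDR summit), and atg-18 (rank 2265). Body wall muscle genes had 2 of 46, unc-89, the obscurin gene (rank 2916), and lev-11, the tropomyosin gene (rank 3465). Chemoreceptor genes had 2 of 1286, sre-23 and srd-64 (rank 1768), a share of 0.156%. Single members lay at hsp-12.2 among chaperone genes (rank 2492) and nhr-117 among 274 nuclear hormone receptor genes. Others lay at nlp-15 among neuropeptide genes (rank 2006) and rpb-7 among RNA polymerase II and Mediator genes (rank 2404). The rpb-7 summit lay inside Y54E10BR.2, 277 bp from an IDR summit. The 81 histone, 175 collagen, 87 homeobox and 40 germline genes had no member, and unreplicated regions lay at 1, 2, 2 and 0 of them. Unreplicated regions lay at the promoters of 0 autophagy, 7 body wall muscle (15.2%) and 19 chemoreceptor genes (1.48%). They also lay at 5 chaperone, 7 RNA polymerase II and Mediator, 9 nuclear hormone receptor and 5 neuropeptide genes.

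Members inside genes were described by their position along the gene. Outside promoter windows, 171 members lay in 164 host genes, at a median of 47.0% of the way from the 5′ end, with quartiles of 30.1% and 68.8%. An IDR peak at the promoter of the same gene was present for 19 of these 171 members (11.1%) and for 6.44% of 1739 unreplicated regions in gene bodies, with an odds ratio of 1.66 (0.887 to 2.97, exact test over rank bins, p = 0.106), a comparison added after the values were seen. The gene kin-1, which encodes the catalytic subunit of protein kinase A, held 3 members, at ranks 1618, 1857 and 1965, and was chosen after its values were seen, as were the genes named next. Both members of mef-2, at ranks 1938 and 2345, were matched through the same replicate regions, ranks 1676 and 2529, so they count 1 pair of replicate regions in duplicate.

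Noncoding genes were near 57 members (16.8%) and 398 unreplicated regions (12.6%), counting summits within 200 bp of a gene. The odds ratio was 1.17 (0.825 to 1.63, exact test over rank bins, adjusted p = 0.691), and no class passed the test among those with at least 10 regions in all. Near tRNA genes lay 13 members (3.83%) and 46 unreplicated regions (1.46%), with an odds ratio of 1.80 (0.829 to 3.72, exact test, adjusted p = 0.442), which without the rank bins was 2.70 (adjusted p = 0.0274). Of the 339 members and 3161 unreplicated regions, 35 and 257 lay near unclassified ncRNA genes and 6 and 33 near small nucleolar RNA (snoRNA) genes. Near piRNA genes lay 5 and 47, near lincRNA genes 2 and 10, near snRNA genes 2 and 8 and near microRNA genes 2 and 7. These counts are to be read against the sizes of the groups. Pseudogenes were near no member and 42 unreplicated regions (1.33%, exact test p = 0.0352, adjusted p = 0.281). A count of 0 of 339 allows a share of up to 1.08% by the exact interval.

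The tRNA members lay close to the gene. Of the 13, 8 had their summit upstream of the nearest tRNA gene, 2 inside and 3 downstream, at a median of 38 bp and at most 162 bp. The X chromosome held 6 of them and the autosomes 7, counts that were not set against the number of tRNA genes on each chromosome. At WBGene00014538 the summit lay 38 bp upstream of the gene, at pooled rank 1529, with ranks of 1728 and 4844 and signals of 59.7 in replicate 1 and 32.3 in replicate 2. WBGene00014344 (rank 1602), in an intron of F22G12.4, had ranks of 3002 and 4591, WBGene00014272 (rank 1649) had 2248 and 1612, and WBGene00014594 (rank 1670), whose summit was in a coding exon of eps-8, had 2358 and 1546. The 3 sites that follow, ranked behind those that the naming rule takes, were chosen after their values were seen. The member near WBGene00014416 (rank 2695) and the one near WBGene00022947 (rank 3243) had an IDR summit 202 bp and 207 bp away, and both tRNA genes also had an IDR summit within 200 bp. The window near WBGene00023161 (rank 3810) was repetitive, with another copy for 81.4% of its 32-mers.

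Of the other classes, the best-ranked sites were these. The ncRNA gene F13H6.12, in an intron of bcl-11, lay 73 bp from the summit of rank 1528, and 2 overlapping ncRNA genes that share the name ZC504.15 lay 116 bp from that of rank 1556. The snoRNA genes included ZK265.10, near sre-23 (rank 1514), Y75B12B.12, which held the summit of rank 1543, K02C4.7 in ltd-1 (rank 2466) and C02F5.15 (rank 2511). The long intergenic RNA genes were linc-154 (rank 1926) and linc-110 (rank 1969), and the microRNA genes were cel-mir-67 (rank 1796) and cel-mir-8196a, which lay 5 bp from the same summit as linc-154. The snRNA genes were F32B5.9, beside cpz-1 (rank 1741), and R07E5.16 (rank 4007). Members near the piRNA genes 21ur-11631, 21ur-12337, 21ur-13661 and 21ur-11069 had ranks 1611, 1616, 1696 and 1751. The one at 21ur-11631 is the one between rpl-24.1 and rps-10.

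Members lay near IDR peaks more often than unreplicated regions did, mainly through 24 members that lay less than 300 bp from one. An IDR summit lay within 2000 bp of 52 members (15.3%) and of 235 unreplicated regions (7.43%), with an odds ratio of 1.94 (1.33 to 2.81, exact test over rank bins, adjusted p = 0.0017). Of the members, 24 (7.08%) lay 199 to 277 bp from an IDR summit, against 38 unreplicated regions (1.202%) within 400 bp, and the next nearest member was 693 bp away. In 17 of these 24, another pooled region lay nearer to a matched replicate summit. Without the regions within 400 bp, 28 of 315 members (8.89%) and 197 of 3123 unreplicated regions (6.31%) were near an IDR summit, with an odds ratio of 1.19 (0.729 to 1.89, exact test, adjusted p = 0.492), a comparison added after the values were seen. Because the replicate match is part of the rule, this difference is not independent of it.

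**Figure D5:**
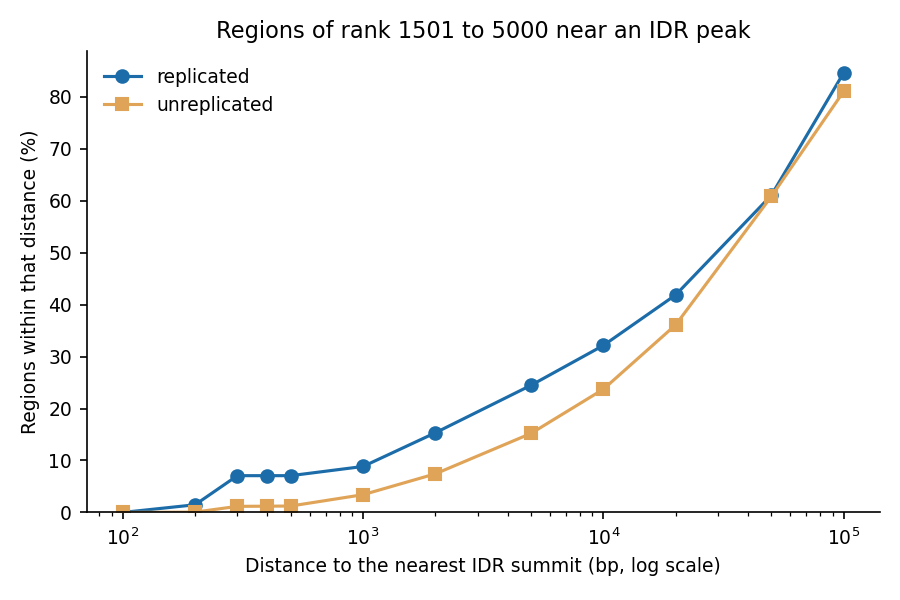
Share of members and of unreplicated regions (y axis, percent) with an IDR summit within each distance (x axis, bp, log scale). The members reach 7.08% at 300 bp against 1.17% of unreplicated regions, and both are near 61% at 50000 bp.

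The 24 members beside IDR peaks held the best replicate ranks. Of these, 18 had a matched replicate region of rank 1500 or better. The member of rank 4007, beside the snRNA gene R07E5.16 and 199 bp from an IDR summit, was matched to regions of rank 32 in replicate 1 and 46 in replicate 2, with signals of 260 and 199. The member at lin-35, 82 bp upstream of its 5′ end, was matched to ranks 217 and 213, and that at efl-1 to ranks 182 and 245. Members upstream of xpo-1 and uvs-1 (rank 1643, ranks 276 and 942), of hpo-29 (rank 2831, ranks 259 and 762) and in unc-23 (rank 4730, ranks 312 and 335) were of the same kind. In contrast, the rps-0 member ranked 3019 and 4443 and the ain-1 member (rank 2763) ranked 2323 and 2972, with no pooled region nearer to either replicate summit. These were named because they lie in the set of 24, after their values were seen.

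Some members shared their replicate summits with another pooled region. When each replicate summit counted only for its nearest region of the whole pooled list, 289 of the 339 stayed members, and 282 of these also lay more than 400 bp from any IDR summit. Of the 289, 31.5% lay at promoters and 20.4% in coding exons. Members then were at the promoters of 107 genes instead of 125. Spacing among the members themselves was mostly wide, with another member within 1000 bp for 6 of them and within 10000 bp for 48.

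No word of sequence passed the test between the groups. Of the 2080 words of 6 bases counted with their reverse complements within 50 bp of each summit, 0 (0%) passed an adjusted p under 0.05 with a ratio of at least 1.5 in either direction by Fisher's exact test, and 93 had an unadjusted p under 0.05. That test was not made within rank bins, and within bins of 500 ranks 0 words passed (Cochran-Mantel-Haenszel test). The smallest adjusted p of the Fisher's exact test was 0.696, shared by 5 words. One of these, CCCGTC, was in 5.60% of member windows and 2.12% of unreplicated windows. The word AAAGAA was in 21.2% and 14.1%, AAAAGA in 22.1% and 15.7%, ACTACA in 7.67% and 3.70%, ACTTCG in 5.60% and 2.69%, GCTGTA in 4.72% and 2.06%, and GCGCGC in 4.42% and 1.71%. Words less frequent in members were CATGCC, in 0% and 2.18%, AAGCAT, in 1.77% and 5.50%, and GTAAAC, in 0.885% and 3.80%. For comparison, GCGCGC was in 10.6% of IDR windows, CCCGTC in 4.65% and ACTTCG in 2.81%, each above its share in unreplicated windows. The other words more frequent in members were below that share in IDR windows: AAAGAA in 10.6%, AAAAGA in 15.4%, ACTACA in 2.92% and GCTGTA in 1.08%. Those less frequent in members were also below it, with CATGCC in 2.06%, AAGCAT in 2.92% and GTAAAC in 3.35%. The median G+C was 42.6% in members and in unreplicated regions, against 49.5% at IDR peaks, and windows mostly of multi-copy 32-mers were 2 of 339 and 48 of 3161 (odds ratio 0.348, exact test, adjusted p = 0.267).

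The members lay on all 6 chromosomes. Chromosome I held 66 members (19.5%, against 15.7%), III and V 65 each (19.2%, against 17.1% and 19.1%), X 52 (15.3%, against 18.2%), II 47 (13.9%, against 13.5%) and IV 44 (13.0%, against 16.3%). No chromosome passed the exact test over rank bins, with adjusted p-values of 0.410 and above. Against the 652 regions matched in neither replicate, chromosome IV held fewer members (odds ratio 0.388, 0.194 to 0.748, exact test, adjusted p = 0.0163). The bins down to ranks 2000 and 2500 held 159 and 96 members but only 4 and 17 of those regions. Few of them could therefore be compared at the ranks of most members.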

How the data were processed

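The authors called regions on each replicate and on the pooled reads against controls and thresholded them by IDR, per the descriptions deposited with the files. No aligner, caller or IDR cutoff is named in the sources used here. Signal, as deposited by the authors, has no stated scale and was compared within 1 list at a time, and the deposited −log10 q was described only. Summits came from the deposited offsets.

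Genes came from Ensembl release 115 on WBcel235, the assembly that ce11 names. Members and lists were chosen with earlier results of these data known. A summit in several location classes counted for the class named earliest in this order: promoter, coding exon, UTRs (5′, then 3′), intron, intergenic. Common odds ratios over 7 bins of 500 ranks were tested in R 4.3.3 (mantelhaen.test, exact, two-sided), with Benjamini-Hochberg adjustment within each family. Words were counted in Python 3.11.15 and tested with scipy 1.17.1. Procedures were tested on simulated data. Intervals are 95% and cover counting error only. The names followed a rule: the 25 best-ranked members, up to 4 genes per list and noncoding class, the SUP pathway list, the 10 words of smallest p and the regions at each limit. Names outside it are said to be so. The symbols iftb-1, daf-21, lin-4, elt-5, opt-2, atgr-7 and swsn-8 were not matched to protein-coding genes.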

Additional observations from a re-analysis of the deposited data

How the results depend on the processing

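Of 221 values recomputed under other settings, 172 kept their direction and their side of the threshold or stayed within 1.5 times the count. The results below did not, and the cause was not tested. The settings that leave out a replicate moved most results. Without replicate 1 or without replicate 2, the odds ratio of matched over other regions ran from 0.808 to 1.34 for promoters, from 0.564 to 1.49 for coding exons, from 0.757 to 1.41 for 3′ UTRs and from 0.798 to 1.24 for intergenic sequence. It ran from 0.904 to 1.203 for any noncoding class, from 0.960 to 1.51 for tRNA genes, from 0.981 to 1.74 for an IDR summit within 2000 bp and from 0.746 to 1.33 for G+C at or above the median. Words called were 7 without replicate 1 and 0 without replicate 2, and genes with a matched region at the promoter were 487 and 526. Without rank bins the promoter ratio was 1.40, the coding exon ratio 0.672 and 1 noncoding class, tRNA, passed with a ratio of 2.70. With the whole replicate lists, which made 2745 regions members, the ratio was 0.928 for promoters, 1.09 for intergenic sequence, 0.661 for tRNA genes, 0.903 for any noncoding class, 0.750 for an IDR summit within 2000 bp and 0.738 for G+C at or above the median, now past the threshold (adjusted p = 0.0012 by the exact test), and 1 chromosome, III, passed the test. Against regions matched in neither replicate, the coding exon ratio was 0.485 and the intron ratio 2.05, both past the threshold, the 3′ UTR ratio was 0.653 and 1 chromosome, IV, passed. For an IDR summit within 2000 bp, the ratio no longer passed at summit distances of 50 bp (1.22) and 100 bp (1.23), down to rank 3000 only (1.61), without regions within 400 bp of an IDR summit (1.19) and with each replicate summit counted for its nearest pooled region only (1.16). The last 2 settings were chosen after seeing the data. The ratio for any noncoding class was 0.977 at 100 bp, and that for tRNA genes was 0.575 when the summit had to lie inside the gene. The 5′ UTR ratio was 1.68 with promoters of 500 and 100 bp. The 3′ UTR ratio was 0.354 at 50 bp, 0 with the 2500 strongest regions, 0.903 beyond rank 3000 and 0.808 with nearest regions only, and the G+C ratio was 1.04 at 50 bp and 1.07 with the 2500 strongest. Genes with a member at the promoter were 55 at 50 bp, 80 at 100 bp, 77 and 223 with promoters of 500 and 100 bp and of 2000 and 500 bp, and 214 by the nearest 5′ end within 2000 bp.

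No paired analysis was possible because the series has 1 group. With 2 replicates and no read counts, neither the error of a single region nor the depth behind it can be given, and the weak ranks depend on the authors' caller. Because the replicates differ in location at these ranks, a comparison of members with other regions mixes agreement between replicates with what each replicate alone recovers. Controls and an untagged strain were not analysed here, and whole larvae give no tissue.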
